A study of Mus musculus with 4 samples.

Results

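The 10 genes Ccnd1, Ccnd2, Ccnd3, Cdk4, Cdk6, Cdkn1a, Cdkn1b, Rb1, Rbl1 and Rbl2 encode the D-type cyclins, the kinases they activate, the inhibitors of these kinases and the pocket proteins that the kinases phosphorylate. Open chromatin at these genes was taken as every listed ATAC-seq peak that touched the stretch from 50 kb upstream of the gene's start to 50 kb past its end. This gave 43 of the 25775 peaks of the WT list and 7 of the 3836 peaks of the Tet2 KO list. The choice of genes used the annotation alone and no measured value.

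In ATAC-seq the transposase Tn5 inserts sequencing adapters wherever DNA is accessible, and peaks are places where the resulting fragments exceed the local background. Primary myoblasts came from the hindlimb muscle of adult male C57BL/6 mice, either WT or with a constitutive Tet2 KO that removes an exon by homologous recombination in all cells of the animal. Satellite cells were sorted as Integrin a7+ CD34+ cells negative for CD45, CD11b, CD31 and Sca1, were kept in culture for 3 days on collagen without a differentiation step, and gave 2 WT and 2 Tet2 KO samples with 5000 cells per library. Each genotype is represented by the peak list of 1 library that could not be tied to a replicate, so the genotypes were not tested against each other, and every interval given is a Wilson 95% interval that covers counting error only.

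In proliferating myoblasts, D-type cyclins bind Cdk4 or Cdk6, and the active kinases phosphorylate the pocket proteins Rb1, Rbl1 and Rbl2, which releases E2F transcription factors and lets DNA replication start. Myoblasts must leave this cycle for good before they fuse into muscle fibres. Cdkn1a and Cdkn1b, the inhibitors of the Cip/Kip family, and the return of pocket proteins to their unphosphorylated state are known for this exit, and Ccnd3 is the D-type cyclin whose level rises as myoblasts differentiate.

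The sequences of the regions to which the results return are given first, from the mm9 reference on its plus strand, each as the summit of a WT peak with 100 bases on either side or the 250 bases upstream of a start. None of them overlaps an annotated exon. Capitals mark matches, on either strand, to CAGCTG (the E box preferred by MyoD and other myogenic factors), CACGTG (the E box of Myc), TGANTCA (AP-1), GGGCGG (GC box), CCAAT, TTTCCCGC (one of the E2F forms searched) or a 20-base p53 response element with at most 1 mismatch. Names give the gene and the distance of the summit from its first annotated start in the direction of transcription. The first set holds the 3 regions outside promoters at which both lists had a peak, all in introns, at chr17:47658892-47659092, chr17:47660103-47660303 and chr5:3494438-3494638.
Ccnd3 +16992: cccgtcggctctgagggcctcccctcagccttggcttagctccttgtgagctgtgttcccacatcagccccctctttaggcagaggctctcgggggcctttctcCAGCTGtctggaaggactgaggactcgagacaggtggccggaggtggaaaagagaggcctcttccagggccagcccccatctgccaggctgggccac
Ccnd3 +18203: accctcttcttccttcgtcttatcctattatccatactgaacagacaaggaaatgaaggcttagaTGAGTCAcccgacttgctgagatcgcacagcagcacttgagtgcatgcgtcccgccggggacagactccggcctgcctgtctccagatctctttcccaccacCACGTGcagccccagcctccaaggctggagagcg
Cdk6 +150645: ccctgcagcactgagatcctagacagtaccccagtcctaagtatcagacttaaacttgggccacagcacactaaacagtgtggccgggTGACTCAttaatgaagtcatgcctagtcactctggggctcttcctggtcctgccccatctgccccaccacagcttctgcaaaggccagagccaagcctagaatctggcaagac

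The second set holds the WT peaks outside promoters with the highest fold enrichment at Cdk6, Ccnd3, Rb1 and Rbl1, none of which overlapped a Tet2 KO peak, at chr5:3301233-3301433, chr17:47679059-47679259, chr14:73713322-73713522 and chr2:156996148-156996348.
Cdk6 -42560: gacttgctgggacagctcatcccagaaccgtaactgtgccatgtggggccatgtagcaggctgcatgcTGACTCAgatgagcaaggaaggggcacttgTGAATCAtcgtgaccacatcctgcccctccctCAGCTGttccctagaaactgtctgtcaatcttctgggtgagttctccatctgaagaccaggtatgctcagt
Ccnd3 +37159: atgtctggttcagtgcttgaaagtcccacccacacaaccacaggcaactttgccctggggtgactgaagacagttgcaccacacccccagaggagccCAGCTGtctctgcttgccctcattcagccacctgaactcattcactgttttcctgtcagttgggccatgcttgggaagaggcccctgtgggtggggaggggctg
Rb1 +12207: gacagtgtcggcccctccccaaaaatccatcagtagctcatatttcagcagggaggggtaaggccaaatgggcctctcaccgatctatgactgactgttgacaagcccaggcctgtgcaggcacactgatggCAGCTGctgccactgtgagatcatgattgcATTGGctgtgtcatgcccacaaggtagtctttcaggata
Rbl1 +34022: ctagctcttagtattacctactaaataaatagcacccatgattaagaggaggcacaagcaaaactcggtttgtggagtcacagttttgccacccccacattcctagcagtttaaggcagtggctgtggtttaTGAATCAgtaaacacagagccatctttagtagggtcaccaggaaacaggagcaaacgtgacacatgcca

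The third set is shown for regulators of the pathway itself. It gives the only WT peak of the 43 with an E2F match (chr7:152127419-152127619), the only one with a p53 element (chr17:29215930-29216130), the peak inside Cdkn1a (chr17:29232359-29232559), and the bases just upstream of the first Cdkn1a start (chr17:29227674-29227923) and of the Cdk4 start (chr10:126500340-126500589).
Ccnd1 -1745: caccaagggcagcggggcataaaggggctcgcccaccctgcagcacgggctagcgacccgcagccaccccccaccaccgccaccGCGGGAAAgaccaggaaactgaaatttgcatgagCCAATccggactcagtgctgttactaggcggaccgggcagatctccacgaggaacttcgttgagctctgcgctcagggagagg
Cdkn1a -11894: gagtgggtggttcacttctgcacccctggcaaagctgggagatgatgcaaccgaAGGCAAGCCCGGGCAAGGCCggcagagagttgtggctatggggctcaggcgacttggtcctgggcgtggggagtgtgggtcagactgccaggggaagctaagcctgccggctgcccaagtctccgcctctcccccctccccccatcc
Cdkn1a +4535: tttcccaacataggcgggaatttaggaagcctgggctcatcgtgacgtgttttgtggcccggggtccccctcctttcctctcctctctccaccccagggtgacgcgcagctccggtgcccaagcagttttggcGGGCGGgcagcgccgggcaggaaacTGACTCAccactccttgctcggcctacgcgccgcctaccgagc
Cdkn1a, upstream of the start: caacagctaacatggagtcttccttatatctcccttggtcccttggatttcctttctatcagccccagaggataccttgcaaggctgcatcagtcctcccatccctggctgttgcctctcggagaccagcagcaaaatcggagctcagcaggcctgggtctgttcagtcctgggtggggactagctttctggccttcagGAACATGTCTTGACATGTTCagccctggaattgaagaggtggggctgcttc
Cdk4, upstream of the start: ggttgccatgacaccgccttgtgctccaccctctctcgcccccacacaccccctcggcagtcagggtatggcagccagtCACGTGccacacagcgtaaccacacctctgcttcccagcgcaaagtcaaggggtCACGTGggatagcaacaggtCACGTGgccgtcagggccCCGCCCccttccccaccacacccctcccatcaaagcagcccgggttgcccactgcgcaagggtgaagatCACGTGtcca

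The libraries behind the lists differed. MACS2 numbers peaks along the genome, and the WT list skips 9707 of 35482 numbers and the Tet2 KO list 4403 of 8239, so peaks that had been called are missing from both. The most frequent background was 0.649 fragments per position in WT and 1.38 in Tet2 KO, 2.13 times as much, and at that background the smallest listed summits had 6 and 7 fragments. The smallest listed −log10 q was 2.18 in WT and 0.863 in Tet2 KO, and the medians were 10.6 and 5.49. The weakest listed Tet2 KO peaks were thus less significant than the weakest listed WT peaks. The promoters of Myod1 and Des, which mark myoblasts, had a peak in both lists, while the other 4 of 6 myoblast markers had none in either. Of 6 markers of other cells in muscle, 1 had a WT promoter peak (Pecam1, at a start shared with Gm885) and 0 had a Tet2 KO promoter peak. Over all protein-coding genes 30.4% had a WT and 7.94% a Tet2 KO promoter peak. These few markers therefore do not establish which cells were present. The part of these differences in the values below was not tested.

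All 10 genes had at least 1 WT peak in their window (74.3% of 22350 protein-coding genes did), and 3 of 10, Ccnd3, Cdk6 and Rbl2, had a Tet2 KO peak (31.4% of all genes). The 43 WT peaks were 6.14 times the 7 Tet2 KO peaks, beside a ratio of 5.84 summed over the windows of all protein-coding genes and 6.72 between the whole lists. With the WT list cut to its 3836 peaks of highest -log10 q, as many as in the Tet2 KO list, the order turned, to 4 WT against 7 Tet2 KO peaks, a ratio of 0.571. This cut applied to the WT list only and made the whole lists equal in number by construction. The genes were unequal: Ccnd3 alone held 12 WT and 4 Tet2 KO peaks, Cdk6 held 6 and 1, Ccnd1 and Cdkn1a 5 and 0 each, Rb1 4 and 0, Rbl2 3 and 2, Cdk4 3 and 0, Cdkn1b and Rbl1 2 and 0 each, and Ccnd2 1 and 0. Without Ccnd3 the counts were 31 and 3. Per 100 kb of window the WT peaks were densest at Ccnd3, with 6.17 (percentile 95.4 of all protein-coding genes), Cdkn1a, with 4.56 (percentile 87.7), and Ccnd1, with 4.55 (percentile 87.6). They were sparsest at Ccnd2, with 0.798 (percentile 32.8), and the median gene of the genome had 1.60.

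**Figure D1:**
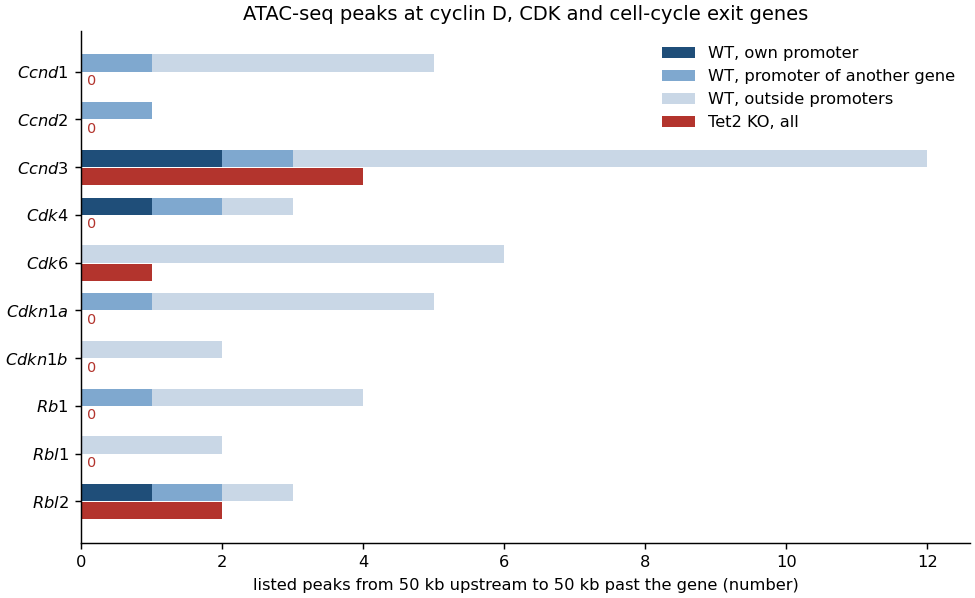
Number of listed peaks in the window of each gene (x axis), with WT peaks split into the gene's own promoter, the promoter of another gene and positions outside promoters, and all Tet2 KO peaks in red. Ccnd3 has 12 WT and 4 Tet2 KO peaks, and 7 of the 10 genes have 0 Tet2 KO peaks.

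Of the 43 WT peaks, 5 overlapped a Tet2 KO peak by at least 1 bp (11.6%, interval 5.07 to 24.5%), against 14.1% of all WT peaks. Of these 5, 3 lay in the Ccnd3 window, and without Ccnd3 the share was 2 of 31 (6.45%). At promoters, for which the centre of the peak had to lie from 1000 bp before to 100 bp after a transcript start, 2 of 11 did (18.2%, interval 5.14 to 47.7%, against 22.5% of all WT promoter peaks). Outside promoters 3 of 32 did (9.38%, interval 3.24 to 24.2%, against 10.9%). In the other direction 7 of 7 Tet2 KO peaks overlapped a WT peak, against 96.8% of all Tet2 KO peaks. Each interval holds the share of the whole list, so no departure of these genes from the rest of the genome was detectable with these few peaks.

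Fold enrichment, the height of a summit over the local background of its own library, ranks peaks within a list. The 43 WT peaks ran from 4.21 to 14.4 with a median of 7.83, close to the median of 7.89 of the whole WT list, and their summits held 8 to 41 fragments. The 5 WT peaks that overlapped a Tet2 KO peak had a median of 8.86, and the 38 that did not, 7.64. Their ranges overlapped: the strongest peak of all, upstream of Cdk6, was among the 38. The 7 Tet2 KO peaks had folds of 4.87 to 7.36, a median of 5.98 beside 5.59 for their whole list, and 11 to 25 fragments.

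**Figure D2:**
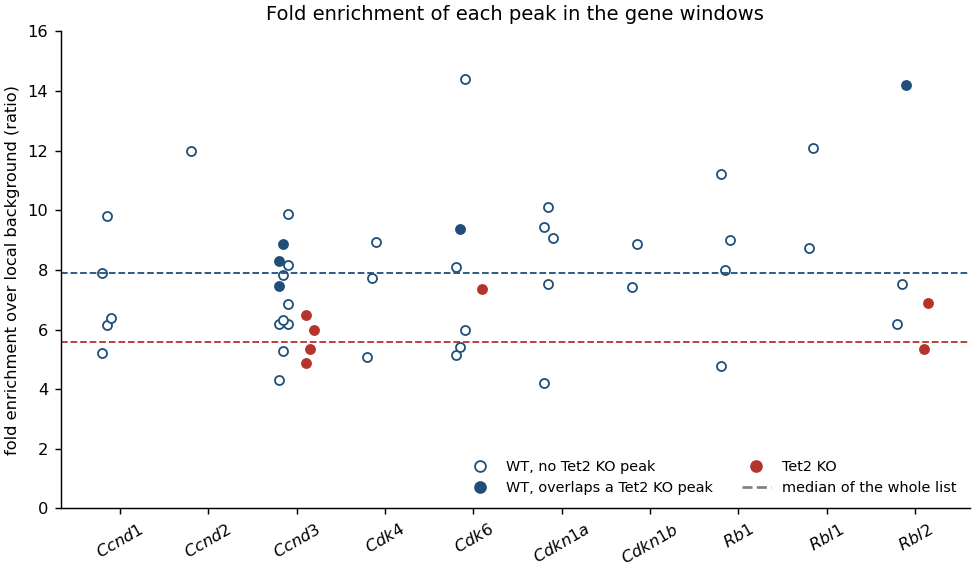
Fold enrichment over the local background (y axis, ratio) of each listed peak by gene, with WT in blue, filled where a Tet2 KO peak overlaps, and Tet2 KO in red. Dashed lines are the medians of the whole lists, 7.89 in WT and 5.59 in Tet2 KO, and since the libraries differ in background the heights are to be compared within a colour.

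Of the 43 WT peaks, 11 lay at promoters (25.6%, against 27.3% of all WT peaks). A WT peak lay at the promoter of 3 of 10 genes, Ccnd3, Cdk4 and Rbl2, beside 30.4% of all protein-coding genes, and a Tet2 KO peak at 0 of 10, beside 7.94%. The 11 were 4 at a promoter of the genes themselves and 7 at that of a neighbour, and the other WT peaks lay in introns (22), between genes (8) and in exons (2). The nearest annotated start belonged to one of the 10 genes for 19 of the 43. A peak in a window is therefore not assigned to its gene here. Of the 7 genes without a WT promoter peak, the WT numbers are skipped around the first start of 4 (Ccnd2, Cdk6, Cdkn1a and Cdkn1b), so that a peak called there and not listed cannot be told apart from none, while at Ccnd1, Rb1 and Rbl1 no number is skipped. In the Tet2 KO list numbers are skipped around the first start of 6 genes and none around Ccnd3, Cdk6, Rb1 and Rbl2.

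The cyclins are described first. Ccnd3 (chr17:47642000-47736632, plus strand) encodes cyclin D3. A WT peak lay at each of its 2 annotated starts. The one at the first start (chr17:47641999-47642192) had 14 fragments and a fold of 6.33, and the one at the second, 88416 bp further in (chr17:47730301-47730427), had 15 fragments over a background of 2.72 and a fold of 4.30. Both were weak for the WT list, at percentiles 22.7 and 0.481 of its folds, and neither overlapped a Tet2 KO peak. The Tet2 KO list skips no number around the first start and 1 around the second, so at the second a peak called and not listed cannot be told apart from none.

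The strongest signal at Ccnd3 lay inside the gene. The WT peak in the intron at +16992 (chr17:47658621-47659150) was 530 bp wide and had 41 fragments, the most of all 43, over a background of 3.74, for a fold of 8.86. It overlapped 2 Tet2 KO peaks. The first (chr17:47658577-47658835) had 20 fragments and a fold of 5.34, and the second (chr17:47658883-47659089) had 25 fragments over 3.00, a fold of 6.50, and a summit 7 bp from the WT summit. That summit lies within the sequence given above, with a CAGCTG 6 bp from the WT summit. The WT peak at +18203 (chr17:47660113-47660577) had 34 fragments and a fold of 7.45, and its Tet2 KO partner (chr17:47660209-47660425) had 23 fragments, a fold of 5.98 and a summit 122 bp away. At both of these neighbouring WT peaks the local background was lower in Tet2 KO (2.94 to 3.01) than in WT (3.70 and 3.74), although the genome-wide one was higher.

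Further WT peaks in Ccnd3 introns lay at +6333 (21 fragments, fold 7.83), at +37159 (22 fragments, fold 9.87) and at +90607 (31 fragments, fold 8.16). None had a listed Tet2 KO peak. The Tet2 KO gap around the second start, with its skipped number, also spans +37159 and +90607. There too a peak called and not listed cannot be told apart from none, while at +6333 no number is skipped. The peak at +37159 had the highest fold at the gene. Its sequence holds a CAGCTG centred 1 bp from the summit and no CpG, and it was the only one of the 43 with none. Upstream, the promoter of Taf8, a subunit of the general transcription factor TFIID, had a WT peak (chr17:47639174-47639372, 18 fragments, fold 8.30) and a Tet2 KO peak (chr17:47639198-47639322, 11 fragments over 1.46, fold 4.87) whose summit lies 2771 bp before the Ccnd3 start. This Tet2 KO peak was the weakest of the 7 and had the lowest -log10 q, 3.52. The remaining 4 WT peaks of the window, at -32398 and -3018 and a pair in an intron of Med20, had 11 to 13 fragments.

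Ccnd1 (chr7:152115836-152125774, minus strand) encodes cyclin D1, which couples growth factor signals to the cycle. It had no promoter peak in either list, and no WT number is skipped in the 6329 bp around its start. The nearest WT peak, at -1745 (chr7:152127433-152127706), had 14 fragments over 1.88 and a fold of 5.21, at percentile 5.62 of the list. Its sequence holds GCGGGAAA, the reverse complement of the E2F form TTTCCCGC, 13 bp from the summit. A peak in an intron of Ccnd1 at +4757 had 17 fragments and a fold of 6.38. The strongest of the window, at +11036 (chr7:152114569-152114863), had 25 fragments and a fold of 9.81 and lies past the end of Ccnd1, in an intron of the neighbour Oraov1. The 2 others were at the Oraov1 promoter (10 fragments) and at -24248 (13 fragments, with 2 AP-1 matches). The Tet2 KO list had 0 peaks here and skips 2 numbers in the 360636 bp around the start.

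Ccnd2 (chr6:127075797-127101066, minus strand) encodes cyclin D2. Its single WT peak (chr6:127059495-127059722) had 21 fragments and a fold of 12.0, at percentile 90.7, and lies at the promoter of 9630033F20Rik (Tigar in RefSeq), 40 bp from that gene's start and 41461 bp past the start of Ccnd2. The gene itself and the 50 kb upstream of it had no listed peak in either genotype. In WT 1 number is skipped across the 219653 bp around the start, and in Tet2 KO 8 across 2636810 bp.

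**Figure D3:**
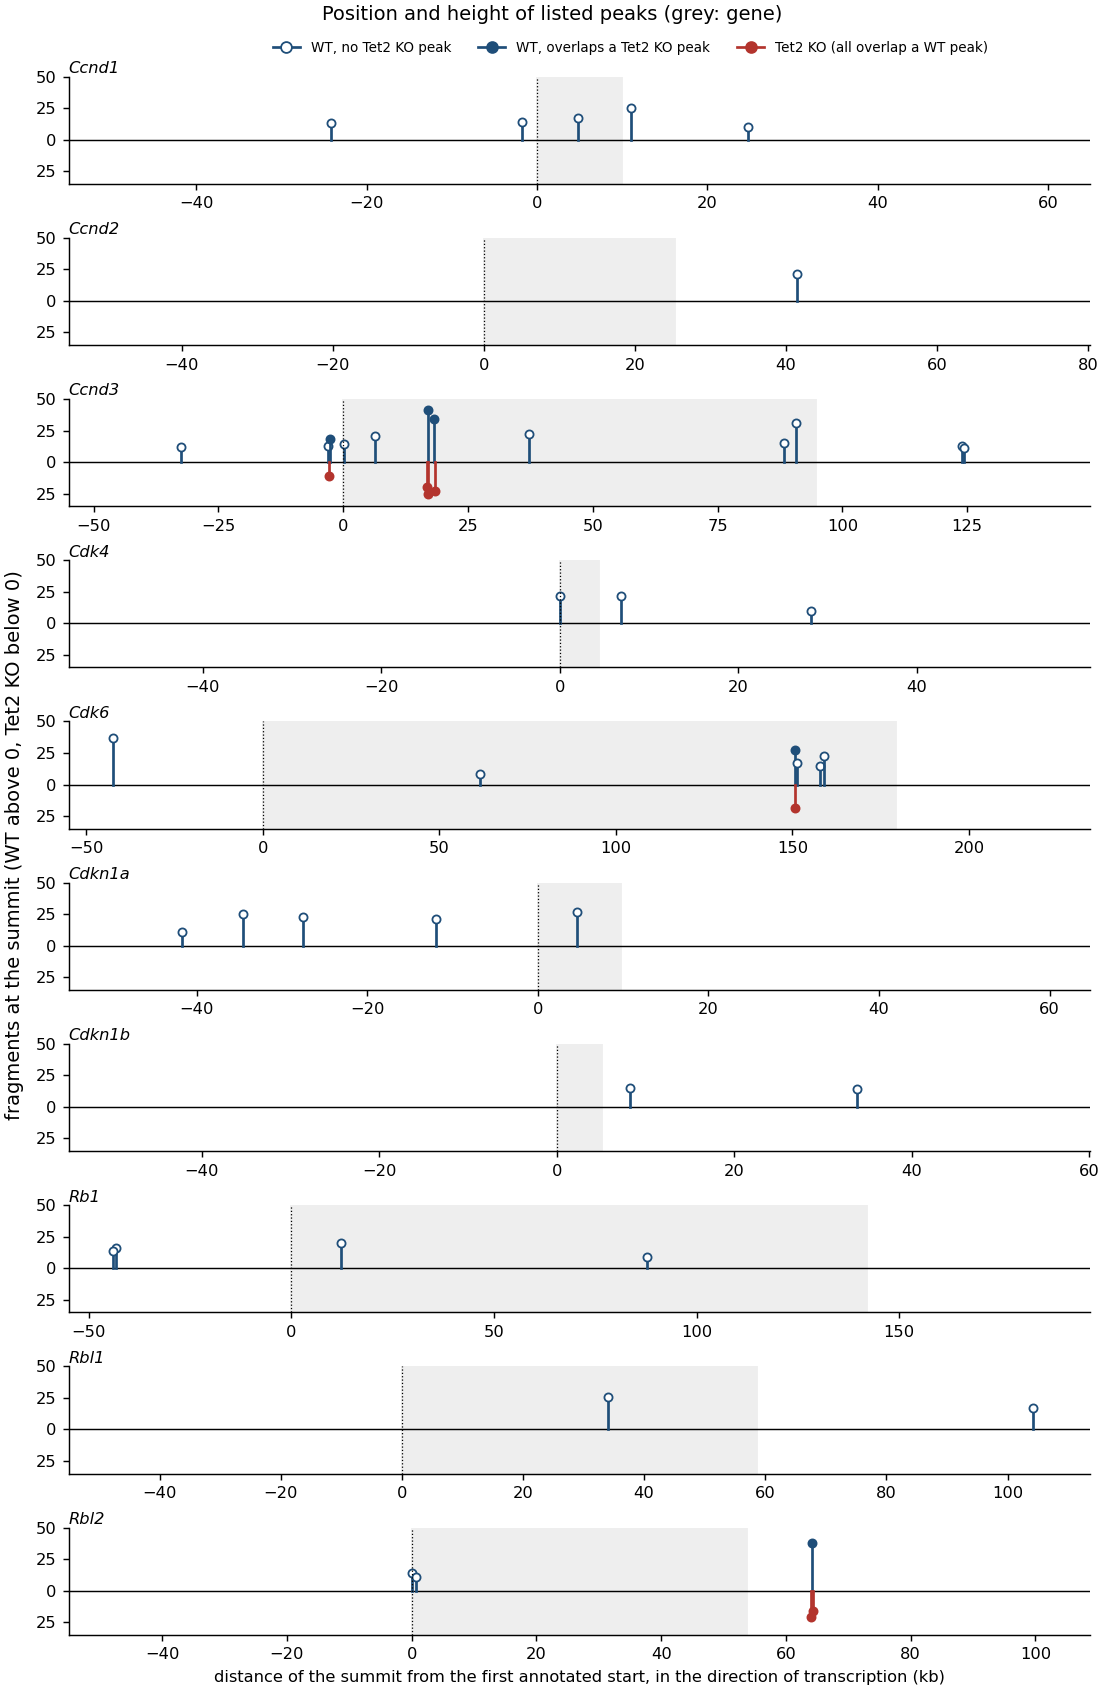
Position of each summit along the 10 gene windows (x axis, kb from the first annotated start in the direction of transcription, grey band: the gene) and the fragments at the summit (y axis, WT upward in blue, Tet2 KO downward in red). Blue circles are filled where a Tet2 KO peak overlaps. Tet2 KO peaks sit in 3 places near Ccnd3, at 1 in Cdk6 and past the end of Rbl2.

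Of the kinases, Cdk4 (chr10:126500590-126504976, plus strand) had a WT peak at its start (chr10:126500306-126500732), 427 bp wide with 22 fragments and a fold of 7.74. This was the widest promoter peak among the genes themselves and, at percentile 46.9, close to the middle of the WT list. The 250 bases upstream of the start, given above, hold 4 CACGTG sites. Only Cdk6 of the other 9 genes has one in the 250 bases before to 50 bases after its start, a window in which 7.79% of all protein-coding genes hold a CACGTG. The promoter of Tspan31, which lies tail to tail with Cdk4, had a WT peak of the same 22 fragments (fold 8.95, summit 6796 bp from the Cdk4 start), and an exon of Agap2 held a peak of 10 fragments. None had a Tet2 KO peak, and the Tet2 KO list skips 1 number in the 4143031 bp around the Cdk4 start.

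Cdk6 (chr5:3343893-3523218, plus strand), the second kinase of the D-type cyclins, had no promoter peak. The WT list skips 3 numbers in the 103895 bp that include its start. Its WT peaks lay far from the start. The peak at -42560 (chr5:3301173-3301464), between genes and with Cdk6 as the nearest start, had 37 fragments over 1.63 and a fold of 14.4, the highest of the 43 and at percentile 97.9 of the WT list. It holds 2 AP-1 matches and a CAGCTG within 100 bp of its summit, and no Tet2 KO peak overlapped it. The Tet2 KO list skips no number in the 341831 bp around the start, so no peak that was called there is missing from that list.

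Near the other end of Cdk6, 4 WT peaks lay in the introns from +150645 to +158942. The first (chr5:3494412-3494607) had 27 fragments over 1.99 and a fold of 9.36. The Tet2 KO peak there (chr5:3494463-3494650) had 19 fragments over 1.72, a fold of 7.36 and a summit 17 bp away. It was the highest Tet2 KO fold at the 10 genes and stood at percentile 86.5 of the Tet2 KO list, while its WT partner stood at percentile 69.9 of the WT list. The sequence holds 1 AP-1 match, TGACTCA, and no CAGCTG. The other 3 WT peaks had 15 to 23 fragments and folds of 5.13 to 8.11 without a Tet2 KO peak. The nearest annotated start to these 4 is that of Gm17590, a gene model inside Cdk6. A weak WT peak at +61504 had 8 fragments, the fewest of the 43.

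Cdkn1a (chr17:29227924-29237667, plus strand) encodes the inhibitor p21, which p53 induces after DNA damage and MyoD during muscle differentiation. Neither list had a peak at any of its 3 annotated starts. The WT peak inside the gene, at +4535 (chr17:29232334-29232554), lies in an intron, its centre 1727 bp past the second start, and had 27 fragments and a fold of 9.43, at percentile 70.7. It holds an AP-1 match and a GC box. Upstream, the WT peak at -11894 (chr17:29215855-29216112) had 21 fragments over 1.18 and a fold of 10.1, the highest at the gene. It lies at the promoter of Gm16197, a non-coding gene on the opposite strand, 77 bp from its start.

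That upstream peak holds a p53 element, AGGCAAGCCCGGGCAAGGCC, centred 37 bp from its summit, which 15 of all 25775 WT peaks do (0.0582%). The 250 bases upstream of the first Cdkn1a start hold another, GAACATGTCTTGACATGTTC, and 13 of 22350 protein-coding genes (also 0.0582%) have one in the 250 bases before to 50 bases after their start. The start carried no listed peak. A match is a description of the letters and was not tested as a binding site. The 3 other WT peaks, at -27551 (23 fragments, fold 9.06), -34517 (25 fragments, fold 7.54) and -41760 (11 fragments, fold 4.21, the lowest of the 43), had Gm16197 or Srsf3 as the nearest start. The Tet2 KO list had 0 peaks in the window and skips 1 number in the 545987 bp around the start, and the WT list skips 1 in 16221 bp.

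Cdkn1b (chr6:134870419-134875531, plus strand) encodes p27, which holds resting cells out of the cycle. Its 2 WT peaks lay past the end of the gene, at +8235 (chr6:134878578-134878878, 15 fragments, fold 7.41) and at +33837 (chr6:134904088-134904374, 14 fragments, fold 8.88), where Apold1 has the nearest start. Both hold CAGCTG, 1 match in the first and 2 in the second. There was no promoter peak, although the bases around the start are rich in CpG (30 in 300 bases, percentile 86.3 of all protein-coding genes). Numbers are skipped around the start in both lists, 2 in WT across 98278 bp and 4 in Tet2 KO across 1261259 bp.

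Among the pocket proteins, Rb1 (chr14:73583480-73725629, minus strand) had its strongest WT peak in an intron at +12207 (chr14:73713326-73713515), with 20 fragments over 0.870 and a fold of 11.2, at percentile 86.4. A weak peak of 9 fragments lay at the promoter of Lpar6, a receptor gene nested in an intron of Rb1. A pair at -43338 and -44012, with 16 and 14 fragments, lay in an intron of the neighbour Itm2b. The Rb1 start had no peak in either list and no skipped number, in 55375 bp in WT and 427476 bp in Tet2 KO. The 300 bases around it hold 55 CpG, more than 99.7% of protein-coding genes, and an E2F match.

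Rbl1 (chr2:156971629-157030270, minus strand) encodes p107, whose level is high in cycling cells. Its WT peak in an intron at +34022 (chr2:156995979-156996368) was 390 bp wide, with 26 fragments and a fold of 12.1 at percentile 91.1, and the nearest start was that of the pseudogene Gm14277. A second WT peak (17 fragments, fold 8.74) lay in an exon of Samhd1. No peak lay at the Rbl1 start, with no number skipped in WT and 8 skipped in Tet2 KO across 2030658 bp. Rb1 and Rbl1 are the 2 of the 10 genes with an E2F match in the 250 bases before to 50 after the start, as have 2.72% of all protein-coding genes.

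Rbl2 (chr8:93593956-93647743, plus strand) encodes p130, the pocket protein of resting cells. It had a WT peak at its start (chr8:93593882-93594027, 14 fragments, fold 7.54) and a smaller one in an intron at +694 (11 fragments, fold 6.19), neither with a Tet2 KO peak, and the Tet2 KO list skips no number in the 225556 bp around the start. Past the end of the gene, the promoter of Aktip, which encodes an AKT-interacting protein, had a WT peak 499 bp wide (chr8:93657852-93658350) with 38 fragments and a fold of 14.2, at percentile 97.6. It overlapped 2 Tet2 KO peaks. These had 21 fragments and a fold of 6.89 (chr8:93657871-93658066), and 16 fragments and a fold of 5.34 (chr8:93658137-93658299). At each of the 5 WT peaks shared with Tet2 KO, the Tet2 KO summits held fewer fragments than the WT summit. This order is not particular to these genes. It also held at the other cell-cycle promoters below with a Tet2 KO peak, such as E2f1 (26 and 16 fragments) and Ccna2 (35 and 19). It was not counted over all shared peaks, and the read totals of the 2 libraries are not given.

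The sequences of the peaks were compared with those of the whole WT list within 100 bp of each summit. CAGCTG occurred in 22 of 43 WT peaks (51.2%, against 33.3% of all). Outside promoters it occurred in 20 of 32 (62.5%, interval 45.3 to 77.1%), against 40.1% of all WT peaks outside promoters, and without Ccnd3 in 14 of 23 (60.9%). These 20 peaks hold 23 CAGCTG sites, of which 16 were centred within 50 bp of the summit. A CpG lay within 10 bases of 7 of the 23 (30.4%, interval 15.6 to 50.9%), beside 28.9% of the 9603 CAGCTG sites in all WT peaks outside promoters. Since the windows share neighbourhoods and base composition, the difference in CAGCTG is given as a description.

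AP-1 matches were in 12 of 43 WT peaks (27.9%, against 34.2% of all). Among the 7 Tet2 KO peaks CAGCTG was in 3 (42.9%, against 27.9% of all Tet2 KO peaks), all of them at Ccnd3. AP-1 was in 1 of the 7 (14.3%, against 26.3%). E2F forms were in 1 WT peak (2.33%, against 1.07%), CACGTG in 3 (6.98%, against 4.36%), and TGACGTCA, the cyclic AMP response element, in 0 (against 1.16%). The median WT peak of these genes had 6 CpG within 100 bp of its summit, beside 3 over all WT peaks, and outside promoters 4 beside 2. GC content was 54.2% beside 53.2%. The 5 WT peaks with a Tet2 KO peak had a median of 9 CpG and the 38 without 5.5, and the medians of the whole list were 6 and 3. These medians were not split by promoter. Over the whole WT list promoter peaks had a median of 14 CpG, beside 2 outside promoters. They also overlapped a Tet2 KO peak more often (22.5%, against 10.9%).

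**Figure D4:**
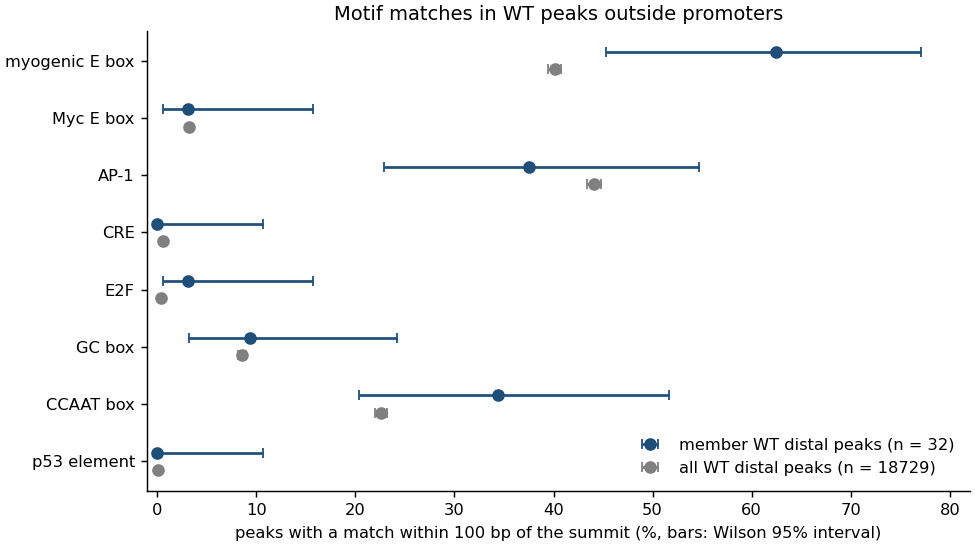
Share of WT peaks outside promoters with a match to each motif within 100 bp of the summit (x axis, %), for the 32 peaks of the 10 genes in blue and for all 18729 in grey, with Wilson 95% intervals. CAGCTG (myogenic E box) is in 62.5% of the former and 40.1% of the latter, and of the motifs matched in any of the 32 peaks, the intervals of all but CAGCTG and E2F hold the value of the whole list.

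The same promoter count over 47 other genes of the cell cycle gave higher numbers. A WT promoter peak was listed at 35 of 47 (74.5%) and a Tet2 KO promoter peak at 12 of 47 (25.5%). All 8 replication genes that E2F controls had one in WT, and 2 of them, Mcm3 and Mcm7, also in Tet2 KO. Of 10 E2F and DP factors, 7 had one in WT and 4 in Tet2 KO (E2f1, E2f3, E2f8 and Tfdp2). Of 6 genes, those of the MuvB complex, which works with pocket proteins, and B-Myb, 5 had one in WT and 2 in Tet2 KO (Lin52 and Mybl2). Of 7 cyclins and kinases of S and M phase, 6 had one in WT and 1, Ccna2, in Tet2 KO. At the Ccna2 promoter the WT peak had 35 fragments and a fold of 14.9, and the Tet2 KO peak 19 fragments and a fold of 7.92.

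Of the 4 genes for the turnover of Cdkn1b and of cyclins, 4 had a WT and 3 a Tet2 KO promoter peak (Skp2, Cks1b and Fbxw7). The Tet2 KO peaks at Skp2, Cks1b, Lin52, Mcm7 and E2f8 also lay at another gene's promoter (Lmbrd2, Shc1, Aldh6a1, Ap4m1 and Gm2788). The INK4 inhibitors and the last Cip/Kip gene had one at 2 of 5 in WT, Cdkn2a and Cdkn2b, and 0 in Tet2 KO. The kinase that activates CDKs had one at 1 of 3 in WT, and the p53 and Myc group at 2 of 4, Mdm2 and Myc, with 0 in Tet2 KO for both groups. The 3 of 10 and 0 of 10 at the cyclin D, CDK and exit genes are thus near the shares of all genes (30.4% and 7.94%). Both counts were above these shares in the replication, E2F, MuvB, S and M phase, and turnover groups, for S and M phase on 1 gene in Tet2 KO. The INK4 (2 of 5), CDK-activating (1 of 3), and p53 and Myc (2 of 4) groups hold too few genes to be set apart from the WT share. They had 0 in Tet2 KO. This list was chosen with earlier results of these data known, and no difference between the groups was tested.

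**Figure D5:**
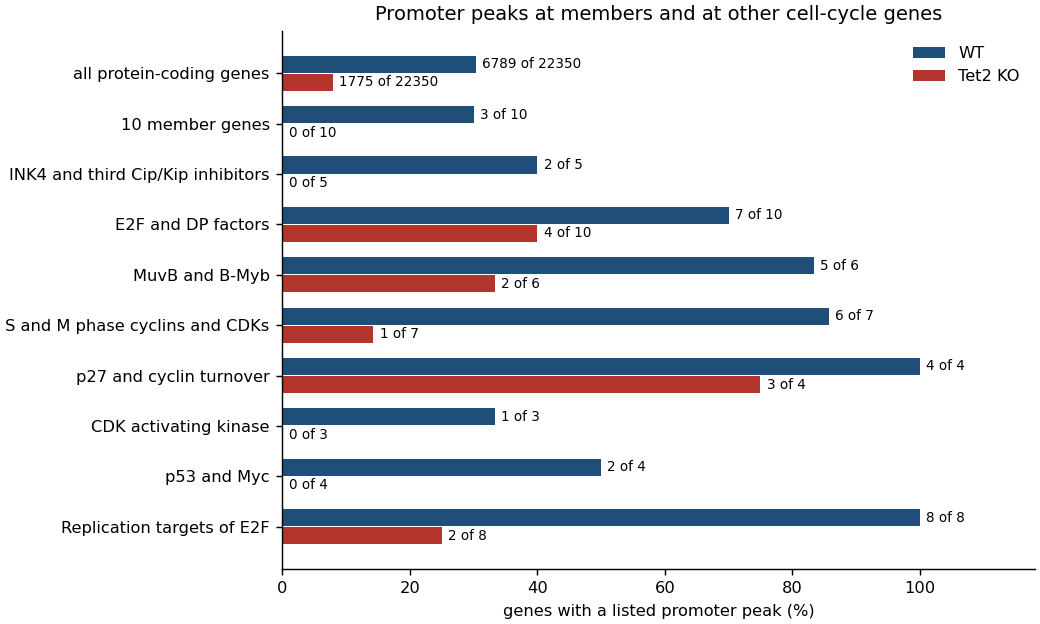
Share of genes with a listed promoter peak (x axis, %) in WT (blue) and Tet2 KO (red), for all protein-coding genes, the 10 genes described and 8 groups of other cell-cycle genes, with the counts beside the bars. The 10 genes have 3 and 0, and the 8 replication genes 8 and 2.

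The windows ended at 50 kb. The farthest WT peak inside lay 45426 bp beyond its gene, at Rbl1, and the nearest outside 53191 bp away, at Cdk4. Between 50 and 100 kb lay a further 22 WT and 2 Tet2 KO peaks. Both of these Tet2 KO peaks overlapped a WT peak.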

How the data were processed

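Before deposition the authors cut the paired reads to 36 bp, placed them on mm9 with Bowtie2, and dropped duplicates and alignments of mapping quality under 30. Peaks were then called sample by sample with MACS2. One peak list per genotype was used, assigned by the name under which it was deposited. The score the authors deposited is the peak score of MACS2. The fold enrichment they deposited is a ratio of summit to local background (pseudocount 1), and the −log10 p and −log10 q they deposited are those of the summit. The summit offset, in bp, was deposited with them. Total read numbers are not given in the sources used here.

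Fragments at each summit and its background were obtained by inverting the Poisson p-value of MACS2 together with the fold (tolerance 0.001 in −log10 p). For 55 WT peaks and 1 Tet2 KO peak a pair of solutions met the tolerance, of which the solution not below the genome-wide background was kept. On simulated data the fragments were recovered for 100% of 1972 peaks. GENCODE M1 gave the feature at each peak centre, and distances refer to the summit, or to the peak centre where they are to the start of another gene or to a second start. Sequences came from NCBIM37, the same build as mm9. Overlap was at least 1 bp. Both lists carry peak numbers in genome order, and gaps in them were counted between the listed peaks on either side of a start. E2F forms searched were TTTCCCGC, TTTGGCGC, TTTCGCGC and TTTGCCGC, on both strands, and matches of different motifs could overlap.

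The genes, the comparison lists and the alternatives (stricter limits on −log10 q and fold, other windows, promoters and overlap rules, merged peaks, equal numbers of peaks) were chosen with earlier results of these data known. Leaving out Ccnd3 was added after seeing the values. By rule all 10 genes, all Tet2 KO peaks in their windows, and the WT promoter peak and the WT peak outside promoters with the highest fold at each gene were named, with neighbours at their nearest start and, of the other cell-cycle genes, those with a Tet2 KO promoter peak. Further peaks and Cdkn2a, Cdkn2b, Mdm2 and Myc were named after their values were seen. With 1 list per genotype no test between genotypes was made. Calculations used scipy 1.17.1, statsmodels 0.14.6, pandas 2.3.3 and numpy 2.4.6 under Python 3.11.15, and matplotlib 3.10.9 drew the plots. Signal tracks, the authors' table of differential peaks, and the mRNA and methylation data are not used here.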

Additional observations from a re-analysis of the deposited data

How the results depend on the processing

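No paired analysis was possible because only 1 list per genotype was used and its replicate is unknown, which also leaves no replicate to omit. The lists hold called peaks only. Signal between peaks is not analysed here.

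The 43 WT peaks became 24 when a −log10 q of 10 or more was required, 26 with 10 kb and 65 with 100 kb on either side, 19 where the nearest start had to be one of the 10 genes, and 4 with as many WT as Tet2 KO peaks, which is fewer than the 7 of the Tet2 KO list. The 7 Tet2 KO peaks became 1 at that −log10 q, 3 by the nearest start and 3 without Ccnd3. The share of WT peaks with a Tet2 KO peak, 11.6%, became 4.17% (1 of 24) at that −log10 q, 4.65% (2 of 43) with an overlap of at least 50%, and 50% (2 of 4) with equal numbers of peaks. Genes with a WT promoter peak, 3, became 1 at that −log10 q, 6 when promoters reached 3000 bp to both sides, which added Ccnd1, Cdkn1a and Rb1, and 0 with equal numbers of peaks. Rb1 was added through the Lpar6 promoter peak, near the start of a non-coding Rb1 transcript 86036 bp inside the gene. The nearest WT peak to the first Rb1 start lay 12114 bp away. Genes with a Tet2 KO promoter peak went from 0 to 1 at 3000 bp, where the Taf8 promoter peak counted for Ccnd3. Each of these alternatives changes by its construction which peaks are counted, and the cause of the changed shares was not tested. No share of all WT peaks or of all protein-coding genes was computed at these settings. A change common to the whole list therefore cannot be told apart from one at these genes. The ratio of WT to Tet2 KO peaks was 0.571 with equal numbers of peaks and lay between 5.20 and 24.0 under the alternatives that treated both lists alike. Of 150 counts for individual genes across the alternatives, 43 moved by more than 1.5 times, 36 of them down. The 150 include the Tet2 KO counts of the 7 genes with 0 Tet2 KO peaks. These stayed at 0 throughout, and under all alternatives but the wider window they could not do otherwise. The 43 of 150 is therefore no measure of stability. With equal numbers of peaks the Tet2 KO list held more peaks than the WT list at 2 genes, Ccnd3 (4 against 1) and Rbl2 (2 against 1), and at 0 genes under the alternatives that treated both lists alike.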
